A study of Mus musculus with 384 samples.

Results

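The S100 calcium-binding proteins described here are 7 mouse genes, S100a4, S100a6, S100a8, S100a9, S100a10, S100a11 and S100g. They were taken by symbol from the 40594 genes counted in both batches, and each symbol matched 1 Ensembl gene. The study sorted single kidney cells of mice aged 8 weeks into plates and sequenced each well (FACS-seq), and its title asks how far monocytes contribute to the myofibroblasts of kidney fibrosis. Cells of 2 gates were sorted, PDGFRB+CD45+ cells (CD45+) and PDGFRB+CD45- cells (CD45-), each on 1 plate of 96 wells in batch 1 and 1 in batch 2, 384 wells in all. PDGFRB, a receptor tyrosine kinase, is found on mural cells and fibroblasts, and Ptprc encodes CD45, the pan-leukocyte surface antigen. The kidneys of all groups were perfused and dissociated with an enzyme, the well names carry the letters UUO, which the labels leave unexplained, and no genotype or treatment is given otherwise. Because no label ties a well to an animal, each plate counts as 1 sample, and the only repeat of a comparison is the other batch.

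S100 proteins are small proteins that bind calcium through paired EF-hand loops and mostly work as dimers. S100a8 and S100a9 form calprotectin, which neutrophils and inflammatory monocytes hold in large amounts and release, and which signals through Tlr4. S100a4, also called fibroblast-specific protein, has been used to mark fibroblasts and is also known in leukocytes, which is why its cell of origin is a standing question in kidney fibrosis. S100a6, S100a10 and S100a11 bind annexins at membranes, S100a10 as the partner of annexin A2. S100g is calbindin-D9k, a calcium buffer of distal tubule cells that carries calcium from apical channels to the basolateral side.

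S100a8 and S100a9 lie near each other on chromosome 3 and were the only members that passed the rule for a difference between the gates, so the sequences in front of both genes are shown. They are the 250 bases before the annotated start in RefSeq (GRCm38.p6), at chr3:90668821-90669070 on the plus strand for S100a8 and chr3:90695722-90695971 on the minus strand for S100a9. Capitals mark matches to TTNNGNAA, a short form of the consensus of C/EBP factors, which act in myeloid cells, searched on both strands of the window. The S100a8 match reads as printed, and both S100a9 matches are on the strand opposite to the printed one, so that the printed letters are their reverse complement.
S100a8: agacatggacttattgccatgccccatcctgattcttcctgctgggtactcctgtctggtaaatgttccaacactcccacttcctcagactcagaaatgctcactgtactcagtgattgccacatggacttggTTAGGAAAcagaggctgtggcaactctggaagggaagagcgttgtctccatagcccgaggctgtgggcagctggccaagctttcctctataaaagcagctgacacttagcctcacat
S100a9: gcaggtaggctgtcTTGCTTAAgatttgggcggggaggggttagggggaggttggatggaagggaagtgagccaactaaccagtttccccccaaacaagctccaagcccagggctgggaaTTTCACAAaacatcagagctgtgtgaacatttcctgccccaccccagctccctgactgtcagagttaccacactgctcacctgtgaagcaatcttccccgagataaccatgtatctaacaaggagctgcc
The S100a8 window held 1 match, which begins 117 bases before the start, and the S100a9 window held 2, which begin 236 and 130 bases before it and did not overlap. Of 32851 RefSeq windows of this length, 36.8% held at least 1 match and 10.9% at least 2, so a match alone is common. The other members on chromosome 3 are S100a4, S100a6, S100a10 and S100a11, while S100g is on chromosome X.

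Of the 384 wells, 368 were kept as cells, each with at least 10000 reads on genes and 500 genes with a read. This left 92 CD45+ and 93 CD45- wells in batch 1, and 90 CD45+ and 93 CD45- wells in batch 2. Their median depth was 225559 reads (CD45+) and 255990 (CD45-) in batch 1, and 284092 (CD45+) and 288818 (CD45-) in batch 2. Levels are reads of a gene per 1000000 reads on genes (CPM), of a well or of the reads summed over the kept wells of a plate, and they were compared within a gene only, since CPM is not scaled to gene length. Ptprc had 469 and 303 CPM on the CD45+ plates of the batches, against 0.136 and 0.976 CPM on the CD45- plates. Pdgfrb, the gene of the marker both gates were sorted on, had 0.113 and 5.73 CPM on the CD45+ plates and 294 and 220 CPM on the CD45- plates. A read of it was found in 3 of 92 and 6 of 90 CD45+ wells, against 86 of 93 and 82 of 93 CD45- wells.

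S100a8 and S100a9 were the members that separated the gates. By the rule of at least a 4-fold difference in the same direction in both batches, both were higher in CD45+, no member was higher in CD45-, and the other 5 passed in neither direction. Of all 12882 genes tested (at least 1 CPM on average over the 4 plates), the rule called 558 higher in CD45+, which is 4.33%, and 1663 higher in CD45-, which is 12.9%. The median log2 ratio, CD45+ over CD45- with 1 CPM added to each level, was 0.66 and 0.64 over the 7 members in batches 1 and 2, against -0.39 and -0.56 over all genes tested. The members' medians are the ratios of S100g in batch 1 and of S100a4 in batch 2, and these were -0.04 and 0.01 without 1 CD45+ well each (replicate 83 of batch 1 and replicate 16 of batch 2). No p-value accompanies these ratios, because each group is 1 plate per batch.

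**Figure D1:**
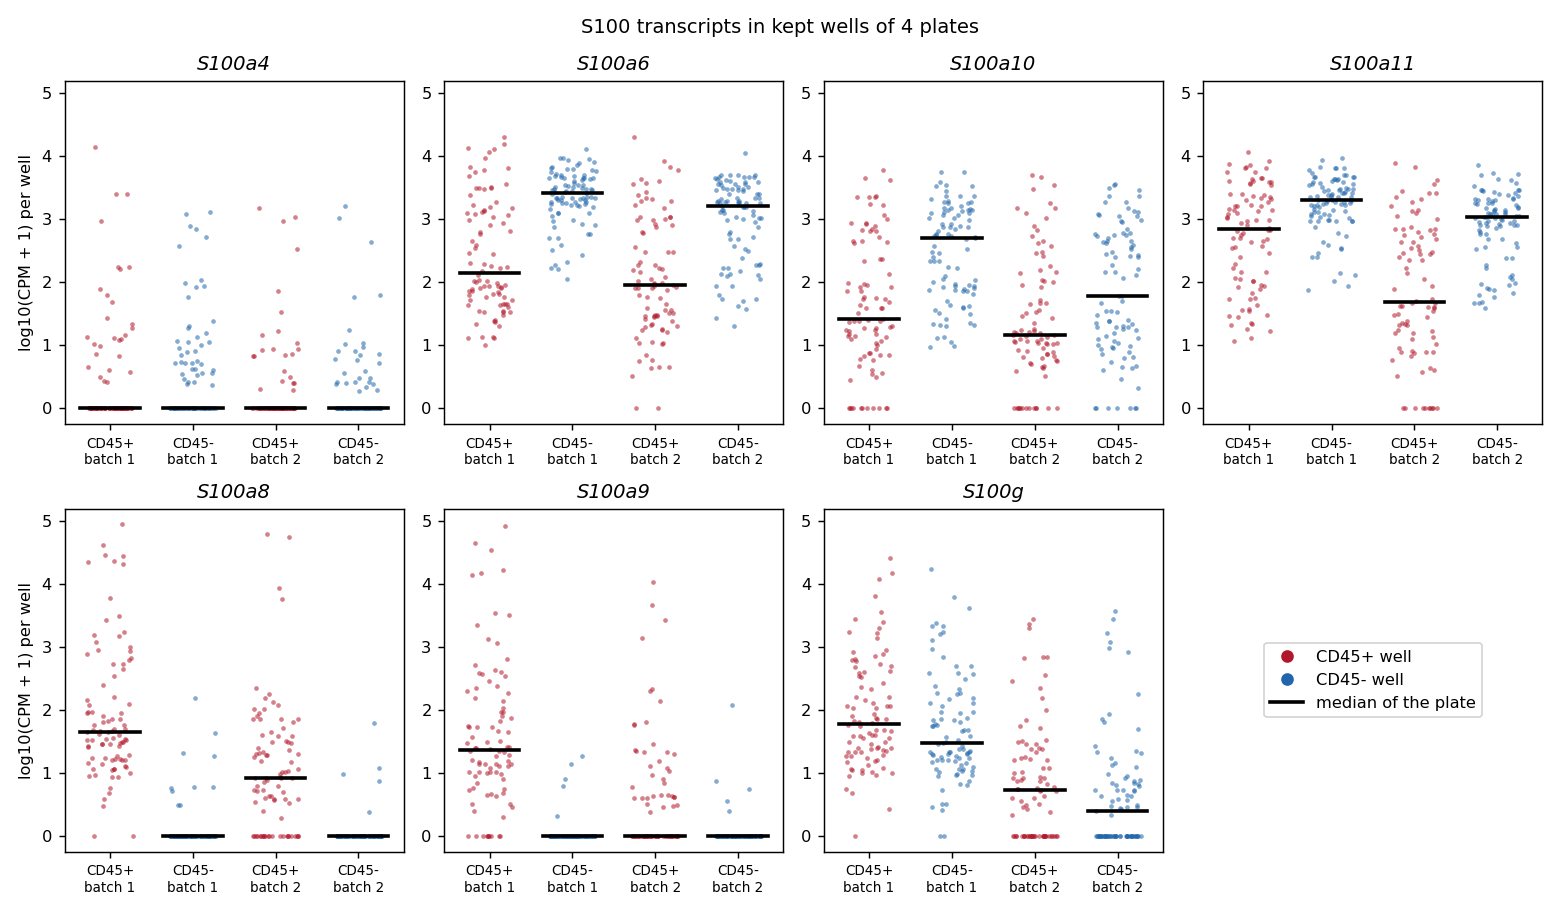
CPM of the 7 S100 genes in each kept well, as log10(CPM + 1), by gate and batch, with the median of each plate as a black bar. S100a8 and S100a9 range from 0 to above 10000 CPM in the CD45+ plates and lie at 0 in most CD45- wells, while S100a6 and S100a11 have higher medians in the CD45- plates and S100a4 has a median of 0 everywhere.

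S100a8 (ENSMUSG00000056054) had 926 CPM on the CD45+ plate of batch 1 and 277 CPM on that of batch 2, against 0.511 and 0.630 CPM on the CD45- plates. The exact Poisson 95% intervals were 915 to 938 and 271 to 284 CPM in CD45+, and 0.286 to 0.843 and 0.385 to 0.973 CPM in CD45-; they cover counting error only. The log2 ratios were 9.26 and 7.42. A few wells made up these sums, so the CD45+ plates hold a small number of very rich wells on a low and wide floor. Per well, S100a8 ran from 0 through a median of 44.3 to 88766 CPM in CD45+ wells of batch 1, against 0, 0 and 153 CPM in CD45- wells, and from 0 through 7.41 to 61299 CPM in CD45+ wells of batch 2, against 0, 0 and 62.5 CPM in CD45- wells.

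S100a9 (ENSMUSG00000056071) had 558 and 98.3 CPM on the CD45+ plates, against 0.239 and 0.724 CPM on the CD45- plates, with log2 ratios of 8.82 and 5.85. Its wells had medians of 22.05 CPM in CD45+ and 0 in CD45- in batch 1, and of 0 in both plates of batch 2. The highest CD45+ wells reached 84351 and 10930 CPM, and the highest CD45- wells 17.9 and 119 CPM. The batch 2 ratios of both genes leaned on 1 well each: without CD45+ replicate 85, S100a8 stood at 138 CPM with a log2 ratio of 6.41, and without CD45+ replicate 79, S100a9 stood at 44.8 CPM with a ratio of 4.73. Without CD45- replicate 93 of batch 2, S100a9 in that plate stood at 0.127 CPM and its ratio was 6.46. Both genes passed the 4-fold rule in each case.

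S100a8 was unevenly spread over the CD45+ wells, with a gap between rich and poor wells. In batch 1, 13 of 92 CD45+ wells held 109 to 4394 S100a8 reads, and the next well held 44. In batch 2, 4 of 90 CD45+ wells held 1165 to 3991 reads, and the next well held 30. Wells with at least 100 reads of a gene are called rich here, a limit that was set after the data were seen and that lies inside this gap. The rich wells held 96.7% and 96.5% of the S100a8 reads of their plates. No kept CD45- well was rich, 0 of 93 in batch 1 and 0 of 93 in batch 2. The exact 95% interval of 0 of 186 reaches 1.96%, but it pools the wells of 2 plates as independent and covers counting error only. The most S100a8 reads in a CD45- well were 3 in batch 1 and 10 in batch 2. S100a9 had 12 rich wells in CD45+ batch 1, where the next well held 44 reads, and 3 in CD45+ batch 2, with 1530, 926 and 100 reads and 78 in the next; no kept CD45- well was rich.

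Outside the rich wells, nearly every CD45+ well of batch 1 held a few S100a8 reads, and their number did not grow with the depth of the well. Among CD45+ wells of batch 1 that were not rich in S100a8, the median was 8.5 reads in the 4 left-out wells of under 10000 reads, 9 in wells of 10000 to 50000, 6 from 50000 to 200000, 6 from 200000 to 400000, and 9.5 at 400000 or more. In batch 2 these medians were 1, 2, 3, 1.5 and 2 reads, and in the CD45- plates they were 0 in every depth range of both batches. S100a9 had medians of 4.5, 3.5, 5, 4 and 5 reads in the same ranges of CD45+ batch 1 and 0 in CD45+ batch 2. A near-constant number of reads makes the CPM of a well fall as its depth rises. The median S100a8 level was 770 CPM in CD45+ batch 1 wells of 10000 to 50000 reads and 17.54 CPM in wells of 400000 or more. These 2 medians are over all wells of the range, of which 3 of 16 and 2 of 26 were rich.

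**Figure D2:**
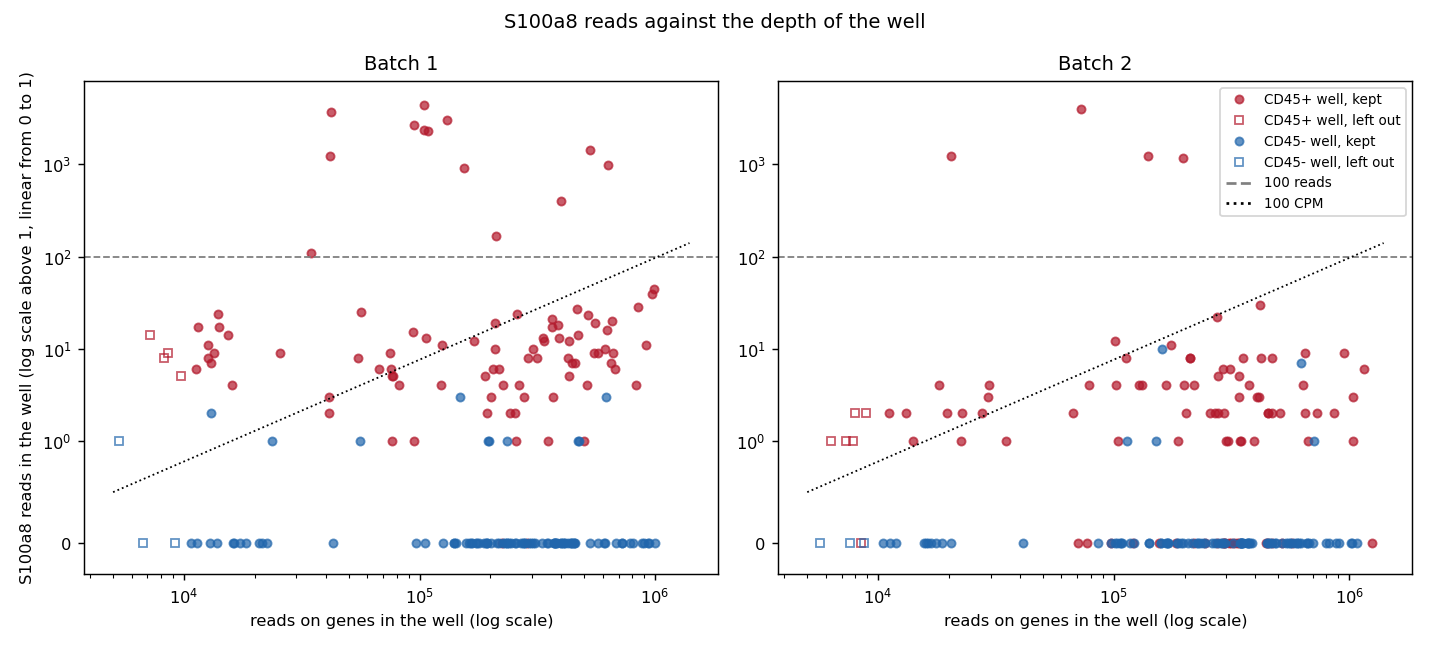
S100a8 reads against the total reads of each well, batch 1 left and batch 2 right, with wells left out as near empty drawn as open squares. The rich CD45+ wells lie above the dashed line at 100 reads, and the other CD45+ wells form a flat band, so that shallow wells of that band cross the dotted line at 100 CPM.

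This band bears on what a level of 100 CPM counts. At or above 100 CPM there were 29 CD45+ wells in batch 1 and 11 in batch 2 for S100a8, against 1 and 0 CD45- wells. Of the CD45+ wells rich in neither gene, 15 in batch 1 and 7 in batch 2 passed 100 CPM of S100a8, and 10 and 6 of them held under 50000 reads. Outside the rich wells the summed level of S100a8 was 33.9 and 9.85 CPM in CD45+, which is still above the 0.511 and 0.630 CPM of the CD45- plates. After thinning to 50000 reads, a read of S100a8 was found in 51 of 76 CD45+ wells of batch 1 (67.1%, 95% interval 55.4 to 77.5%), against 3 of 79 CD45- wells (3.80%, 0.79 to 10.7%). In batch 2 it was found in 25 of 78 CD45+ wells (32.1%, 21.9 to 43.6%), against 4 of 82 CD45- wells (4.88%, 1.34 to 12.02%). Unthinned, 90 of 92 and 67 of 90 CD45+ wells had a read, against 10 of 93 and 5 of 93 CD45- wells. Summed over the wells rich in neither gene, S100a8 had 755 reads in CD45+ batch 1 and 276 in CD45+ batch 2, against 15 and 20 reads on the CD45- plates, which held no rich well. In CD45+ batch 1, such wells had a median of 8 S100a8 reads in the 74 that shared a plate row or column with a rich well and of 5.5 in the 2 that did not. In CD45+ batch 2, they had a median of 2 S100a8 reads in the 57 that shared a plate row or column with a rich well, and also of 2 in the 29 that did not. The wells of a plate carried barcodes and were sequenced as 1 pool, and the part of that pooling in these low reads was not tested.

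The rich wells of the calprotectin genes overlapped, but the balance of the 2 transcripts varied widely. Of 20 CD45+ wells rich in S100a8 or S100a9, 16 in batch 1 and 4 in batch 2, 12 were rich in both. S100a8 had more reads in 13 of them and S100a9 in 7. Replicate 13 of batch 1 held 4394 S100a8 and 21 S100a9 reads, and replicate 70 held 923 and 7. Replicate 25 of batch 1 had the opposite balance, with 24 S100a8 and 1181 S100a9 reads, and replicate 26 of batch 2 held 1244 S100a8 reads and no S100a9 read. Replicate 92 of batch 1, the well with the highest S100a8 level at 88766 CPM, held 3732 and 1466 reads. Summed over the wells rich in neither, S100a8 had 1.56 reads per S100a9 read in CD45+ batch 1 and 1.14 in batch 2, against 1.66 and 2.82 over all wells of those plates. No molecular identifiers are stated, so the amplification error in such ratios of single wells is unknown.

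**Figure D3:**
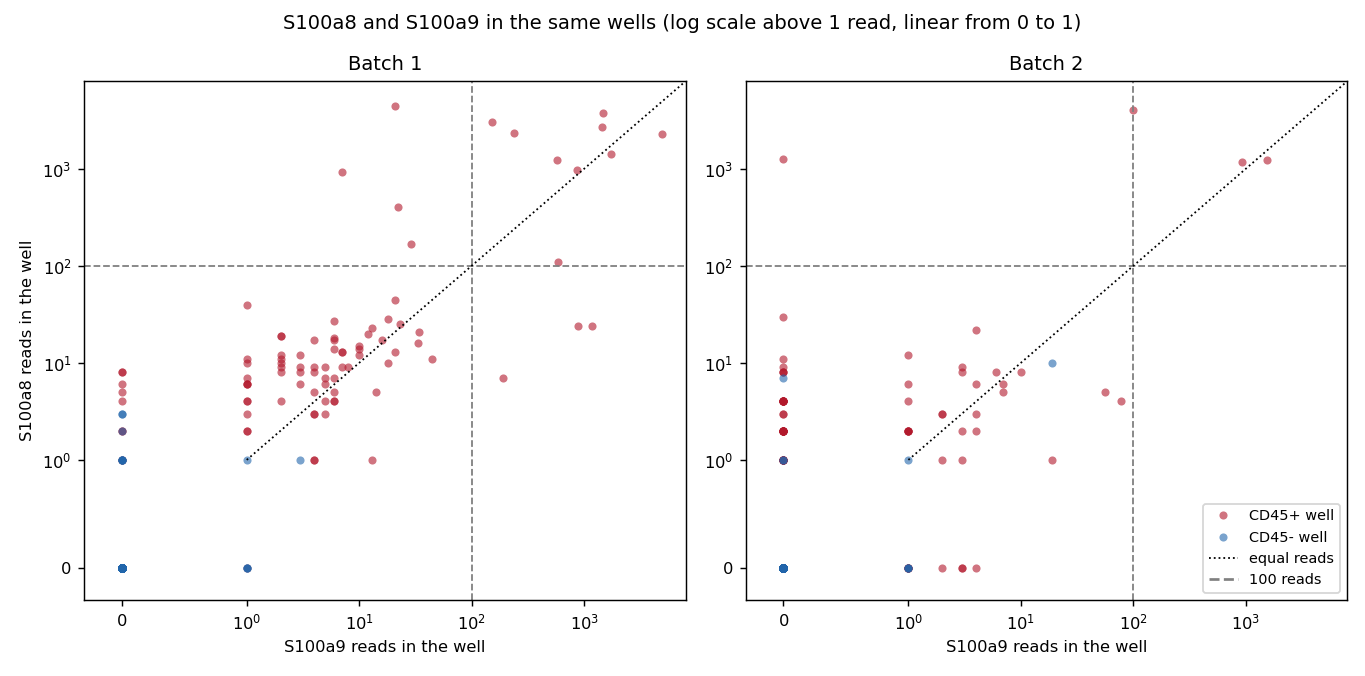
S100a8 reads against S100a9 reads in each kept well, batch 1 left and batch 2 right, with a dotted line at equal reads and dashed lines at 100 reads. Of the 20 CD45+ wells past 100 reads of either gene, 12 are past it for both, and CD45- wells stay at or below 19 reads of each gene.

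Neutrophil markers were found in some of these wells, with different markers in different wells. Of the 20 wells, 12 had at least 100 reads of 1 or more of the 13 neutrophil markers and 6 of 2 or more. Csf3r, the receptor of granulocyte colony-stimulating factor, reached 100 reads in 4 wells, Retnlg, a resistin-like peptide of neutrophils, in 3, Il1r2, a decoy receptor for interleukin 1, in 4, and G0s2, a lipase inhibitor, in 5. Replicate 13 of batch 1 held 2056 Retnlg reads, replicate 61 held 1741, and replicate 78 held 518 Mmp9, 418 Hdc and 178 Csf3r reads. Ly6g, a surface protein that defines mouse neutrophils, had 0 reads in all 20. It also reached 100 reads in 0 of the 76 and 0 of the 86 other CD45+ wells of batches 1 and 2. Its absence therefore does not set the 20 wells apart. The granule genes Ngp, Camp and Ltf reached 100 reads in no CD45+ well. Of the 13 markers, 5 had no read in any rich well of batch 1 and 6 in none of batch 2. These genes and wells were picked for mention after their values were seen.

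The summed level of the 13 neutrophil markers was 2.24 to 22263 CPM in the 16 rich wells of batch 1 (median 1481) and 1136 to 42673 CPM in the 4 of batch 2 (median 6229). In the other CD45+ wells it was 0 to 25412 CPM (median 16.7) in batch 1 and 0 to 29699 CPM (median 7.82) in batch 2. At least 100 reads of any of these markers were in 9 of 16 rich and 6 of 76 other wells in batch 1, and in 3 of 4 rich and 5 of 86 other wells in batch 2. The 8 monocyte markers had medians of 200 CPM in rich and 354 CPM in other wells of batch 1, and of 234 and 136 CPM in batch 2; Ly6c2, a surface marker of inflammatory monocytes, reached 100 reads in none of the 20. The 8 macrophage markers had medians of 10598 CPM in rich and 11758 CPM in other wells in batch 1, and of 7264 and 22674 CPM in batch 2. C1qb, a chain of complement C1q made by macrophages, reached 100 reads in 14 of the 20 wells, Tyrobp, a signalling adaptor of myeloid cells, in 16, and Il1b, an inflammatory cytokine, in 12. In the other CD45+ wells, C1qb did so in 60 of 76 (batch 1) and 78 of 86 (batch 2). Over all CD45+ wells, Tyrobp did so in 74 of 92 and 75 of 90, and that share is not given here for Il1b. The CD45+ wells left out with under 10000 reads had medians of 101 and 114 C1qb reads in batches 1 and 2. A count near 100 C1qb reads therefore does not set a well apart from near-empty ones. The rich wells were shallower, with a median of 119716 reads in batch 1 and 106228 in batch 2, against 255631 and 292256 in the other CD45+ wells. The part of depth in these marker levels was not tested.

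S100a4 (ENSMUSG00000001020) was found in few wells of either gate, and those wells were of different kinds. It stood at 123 CPM (95% interval 119 to 127) in the CD45+ plate of batch 1 and at 75.4 CPM (72.3 to 78.6) in the CD45- plate, and at 65.1 CPM (62.2 to 68.1) and 41.6 CPM (39.4 to 43.9) in batch 2. The log2 ratios were 0.70 and 0.64, under the 4-fold rule. The median well had 0 CPM on all 4 plates, and the highest had 14081 CPM (CD45+) and 1314 CPM (CD45-) in batch 1, and 1523 CPM (CD45+) and 1603 CPM (CD45-) in batch 2. A read was found in 28 of 92 CD45+ and 42 of 93 CD45- wells of batch 1 and in 23 of 90 CD45+ and 29 of 93 CD45- wells of batch 2. After thinning to 50000 reads, the shares were 15.8% (CD45+, 8.43 to 25.96%) and 21.5% (CD45-, 13.1 to 32.2%) in batch 1, and 14.1% (7.26 to 23.8%) and 9.76% (4.31 to 18.3%) in batch 2.

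Wells with at least 100 S100a4 reads numbered 4 of 92 (CD45+) and 6 of 93 (CD45-) in batch 1, and 3 of 90 and 3 of 93 in batch 2. Over both batches they were 7 of 182 in CD45+ (3.85%, 95% interval 1.56 to 7.76%) and 9 of 186 in CD45- (4.84%, 2.24 to 8.99%). These intervals pool the wells of 2 plates as independent and leave out differences between animals and batches. The rich wells held 97.9% (CD45+) and 97.4% (CD45-) of the plate's S100a4 reads in batch 1, and 93.8% and 97.3% in batch 2. Outside them S100a4 stood at 2.63 (CD45+) and 2.19 CPM (CD45-) in batch 1, and at 4.23 and 1.18 CPM in batch 2. The ratio leaned on single wells and changed sign without 1 of them in batch 1. Without CD45+ replicate 65 of batch 1, the level was 73.4 CPM and the log2 ratio -0.04; without CD45+ replicate 16 of batch 2, it was 41.9 CPM and 0.01. Without CD45- replicate 20 of batch 2, the CD45- level was 18.2 CPM and the ratio 1.79.

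The 7 S100a4-rich CD45+ wells all carried at least 100 reads of Tyrobp and of Cd74, the invariant chain of MHC class II, and all had Col1a1, the type I collagen gene that marks fibroblasts, at 24.3 CPM or less. Most CD45+ wells passed 100 reads of these myeloid and antigen-presentation genes, Tyrobp in 74 of 92 and 75 of 90 and Cd74 in 88 of 92 and 89 of 90 in batches 1 and 2. Replicate 65 of batch 1, with 1319 S100a4 reads and 14081 CPM, also held 352 reads of Cd3g, a chain of the T cell receptor complex. Replicate 39 of batch 1, at 2524 CPM, held 502 reads of Ly6c2, 450 of Ccr2, a chemokine receptor of monocytes, and 184 of Chil3. Replicate 84 of batch 1 and replicates 59 and 94 of batch 2 held 25619, 51572 and 48762 CPM of Cd74. Replicate 86 of batch 1 and replicate 16 of batch 2 carried endothelial transcripts beside those of leukocytes, with 720 and 1396 CPM of Egfl7, a secreted protein of endothelium, and 2877 and 677 CPM of Acta2, smooth muscle actin.

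Of the 9 S100a4-rich CD45- wells, 2 had Col1a1 at or above 1000 CPM and 7 had Emcn, an endothelial surface sialoprotein, or Egfl7 at or above 1000 CPM. Other listed endothelial markers varied. Pecam1 reached 100 reads in 0 of 6 such wells of batch 1 and 3 of 3 of batch 2. Plvap did so in 3 of 6 and 1 of 3, and Kdr and Cdh5 in 0 of 6 and 0 of 3. Over all 93 kept CD45- wells of each batch, Pecam1 did so in 6 and 14 and Plvap in 7 and 9. Kdr did so in 7 and 6 of them, and Cdh5 in 7 and 8. Endothelial wells are named by Emcn and Egfl7 alone, except where 3 of 8 markers are stated. The collagen-rich wells were replicate 96 of batch 1, with 706 CPM of S100a4, 11174 CPM of Col1a1 and 12836 CPM of the matrix proteoglycan gene Dcn, and replicate 11 of batch 1, with 533 CPM of S100a4, 1985 CPM of Col1a1 and 4241 CPM of Acta2. Among the endothelial-marked wells, replicate 95 of batch 1 held 1314 CPM of S100a4 and 4097 CPM of Egfl7, and replicate 20 of batch 2 held 1603 CPM of S100a4 and 1509 CPM of Egfl7. Col1a1 in those 7 wells was 79.8 to 645 CPM, against medians of 1997 and 1556 CPM over all CD45- wells of batches 1 and 2. Outside wells with at least 100 Col1a1 reads, the median was 35, 44.5, 48.5 and 51 reads in CD45- batch 1. These are the depth ranges from 10000 to 50000 up to 400000 or more reads. The median Col1a1 level over all wells of these ranges was 2662, 755, 1005 and 4677 CPM. The 7 wells held 35 to 180 Col1a1 reads, and the part of depth in this gap was not tested. Over all kept CD45- wells, 56 of 93 and 49 of 93 had Col1a1 at or above 1000 CPM, and 25 of 93 and 31 of 93 had Emcn or Egfl7 at or above 1000 CPM. Ptprc had 0 reads in 8 of the 9 wells, and Pdgfrb reached 100 reads in 1, replicate 11 of batch 1. Over all kept CD45- wells, Ptprc had a read in only 4 of 93 and 12 of 93 in batches 1 and 2. Pdgfrb reached 100 reads in 17 of 93 and 19 of 93, so neither count sets the 9 wells apart.

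**Figure D4:**
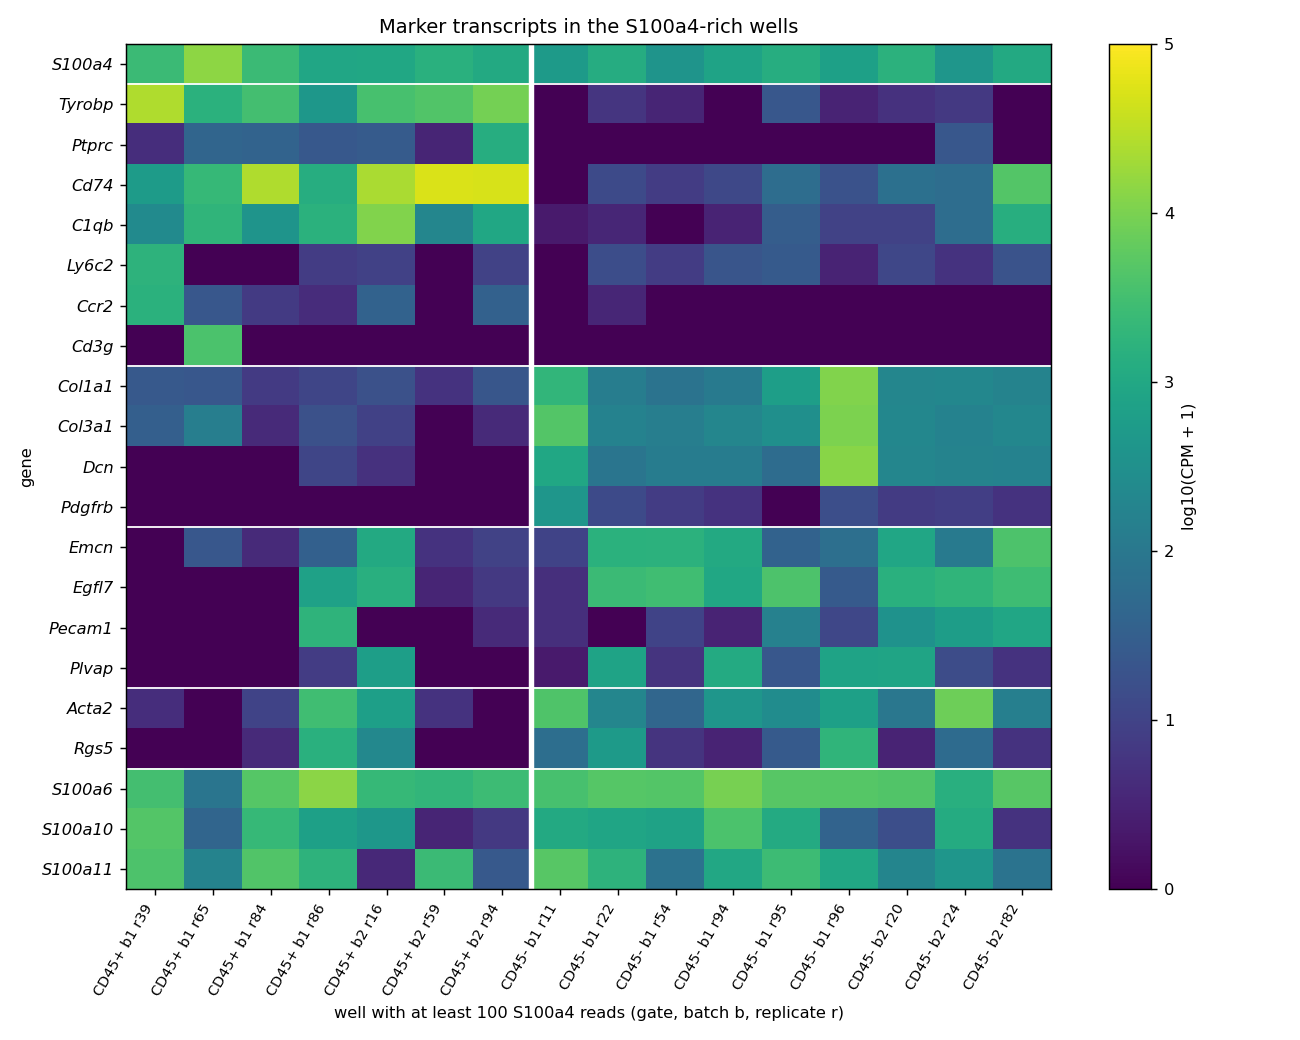
Marker levels, as log10(CPM + 1), in the 16 wells with at least 100 S100a4 reads, 7 CD45+ wells left of the white line and 9 CD45- wells right of it, with genes in rows from S100a4 through leukocyte, fibroblast, endothelial and mural genes to 3 other S100 genes. In the CD45+ wells Tyrobp ranges from 433 to 24874 CPM and Cd74 from 549 to 51572 CPM. Col1a1 and Dcn are above 1000 CPM together in 1 CD45- well, and Egfl7 is above 900 CPM in 7 CD45- wells.

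The S100a4 reads were also divided between kinds of wells, by levels that were chosen after the data were seen. Because the rich wells held 97.4% and 97.3% of the CD45- reads in batches 1 and 2, this division mostly restates the counts of rich wells. In the CD45- plate of batch 1, the 27 wells with Emcn or Egfl7 at or above 500 CPM and Col1a1 below 1000 CPM held 64.2% of the S100a4 reads, and the 47 wells with Col1a1 at or above 1000 CPM and both endothelial genes below 500 CPM held 35.2%. In the CD45- plate of batch 2, 26 wells of the endothelial kind held 97.8% and 35 wells of the collagen kind 1.44%. The median S100a4 level was 0 CPM in each of these sets. A shallow well passes these CPM limits on few reads. The 14 CD45- batch 1 wells of 10000 to 50000 reads had a median of 41 Col1a1 reads and 2662 CPM. In CD45- batch 2 the 11 such wells had 67 reads and 3573 CPM. The sizes of the collagen and fibroblast-marked sets are therefore not counts of cells that express collagen. Of the collagen wells, 21 of 47 and 12 of 35 had any S100a4 read, and 2 and 0 were rich. Of the endothelial wells, 12 of 27 and 9 of 26 had any read, and 4 and 3 were rich. The 4 collagen wells in each CD45+ plate held 7 and 3 S100a4 reads in all. By wells with at least 3 of 8 markers at or above 100 CPM, S100a4 stood at 4.504 (CD45+) and 85.2 CPM (CD45-) in fibroblast-marked wells of batch 1, and at 1.23 and 48.8 CPM in batch 2. In leukocyte-marked wells it stood at 124 and 66.1 CPM in CD45+ batches 1 and 2. These were 91 of 92 and 88 of 90 CD45+ wells, so the values are close to the plate levels of 123 and 65.1 CPM. In endothelial-marked wells S100a4 stood at 0.869 (CD45+, 5 wells) and 217 CPM (CD45-, 28 wells) in batch 1. In batch 2 it stood there at 174 (CD45+, 10 wells) and 212 CPM (CD45-, 32 wells). Fibroblast-marked wells made up 87 of 93 and 79 of 93 CD45- wells and overlapped with the endothelial-marked wells, and all 93 and 93 CD45- wells had a Col1a1 read. Macrophage-marked wells, 73 of 92 and 83 of 90 in CD45+, held 0 and 2 S100a4-rich wells, with 2.92 and 45.3 CPM, and the 7 macrophage-marked CD45- wells of batch 2 held 1, with 184 CPM.

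S100a6 (ENSMUSG00000001025) had higher median levels in CD45- wells, but its plate sums differed by under 4-fold. It stood at 1477 CPM (1462 to 1491) in CD45+ and 3649 CPM (3627 to 3671) in CD45- in batch 1, and at 941 CPM (930 to 952) and 2112 CPM (2096 to 2128) in batch 2, with log2 ratios of -1.30 and -1.17. The median well held 141 CPM (CD45+) and 2610 CPM (CD45-) in batch 1, and 89.1 and 1610 CPM in batch 2. The ranges overlapped widely, from 9.29 to 19956 CPM (CD45+) and 111 to 13081 CPM (CD45-) in batch 1, and from 0 to 20634 CPM and 19.2 to 11354 CPM in batch 2. The gates were farther apart in the medians than in the sums. At equal depth, 28 of 76 CD45+ wells had at least 10 S100a6 reads per 50000, against 78 of 79 CD45- wells in batch 1, and 26 of 78 against 63 of 82 in batch 2.

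In the CD45+ plates, the median S100a6 level was highest in the few wells with Col1a1 at or above 1000 CPM. The 4 CD45+ wells of batch 1 with Col1a1 at or above 1000 CPM had a median of 5826 CPM, the 6 with Emcn or Egfl7 at or above 500 CPM had 1635 CPM, and the 82 with neither had 105 CPM. In CD45+ batch 2 these medians were 978 CPM (4 wells), 532 CPM (14 wells) and 79.7 CPM (71 wells). S100a6 levels were also higher in shallow wells. The median was 1215 CPM in CD45+ batch 1 wells of 10000 to 50000 reads and 57.9 CPM at 400000 or more. In CD45+ batch 2 it was 461 and 80.5 CPM. The depth of the wells in each set was not compared, and its part in these medians was not tested. In the CD45- plate of batch 1 the medians were 2201 CPM in collagen wells, 2774 CPM in endothelial wells and 2536 CPM in wells with neither, while in batch 2 they were 2119 and 1725 CPM in collagen and endothelial wells and 136 CPM in the 18 wells with neither. Of the S100a6-rich CD45+ wells, 18 of 23 in batch 1 and 18 of 22 in batch 2 also had at least 100 reads of Tyrobp, and 22 of 23 and 22 of 22 had at least 100 of Cd74. These shares are close to those of all CD45+ wells given above. The rich CD45+ wells were deeper, with medians of 302714 and 429472 reads in all against 204861 and 214900 in the others.

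S100a11 (ENSMUSG00000027907) stood at 1952 CPM (1935 to 1969) in CD45+ and 3029 CPM (3009 to 3049) in CD45- in batch 1, and at 600 CPM (591 to 609) and 1653 CPM (1639 to 1667) in batch 2. The log2 ratios were -0.63 and -1.46. The median well held 709 CPM (CD45+) and 2053 CPM (CD45-) in batch 1, and 47.9 and 1088 CPM in batch 2. Both gates had lower levels in batch 2, CD45+ wells more so. At equal depth, all 79 and 82 CD45- wells had an S100a11 read, against 72 of 76 and 57 of 78 CD45+ wells. In CD45- batch 2, the endothelial wells had a median of 289 CPM and the collagen wells 1745 CPM; in batch 1, they had 1606 and 2057 CPM.

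S100a10 (ENSMUSG00000041959), the partner of annexin A2, stood at 563 CPM (554 to 572) in CD45+ and 1062 CPM (1051 to 1074) in CD45- in batch 1, and at 404 CPM (397 to 412) and 445 CPM (438 to 452) in batch 2. The log2 ratios were -0.92 and -0.14, and the batch 2 value changed sign, to 0.43 and 0.48, with TMM and DESeq2 scaling. The median well held 24.9 CPM (CD45+) and 498 CPM (CD45-) in batch 1, and 13.6 and 59.5 CPM in batch 2. Rich wells numbered 18 of 92 CD45+ and 42 of 93 CD45- in batch 1, and 15 of 90 and 36 of 93 in batch 2. The 3 annexin-binding members were rich together in 9 of 92 CD45+ and 35 of 93 CD45- wells in batch 1, and in 7 of 90 and 25 of 93 in batch 2. None of the 3 was rich in 42 CD45+ and 17 CD45- wells of batch 1, and in 49 and 19 wells of batch 2. Depth limits these counts. Of the 14 CD45- batch 1 wells of 10000 to 50000 reads, 0 were rich in any of the 3, though their median S100a6 level was 2137 CPM. The limit of 100 reads also lies in no clear gap for S100a10 in CD45- batch 2, where the lowest rich well held 104 reads and the next 94.

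S100g (ENSMUSG00000040808) was present in a few very rich wells of every plate. It stood at 1089 CPM (1077 to 1102) in CD45+ and 690 CPM (681 to 700) in CD45- in batch 1, and at 186 CPM (181 to 191) and 75.7 CPM (72.7 to 78.8) in batch 2, with log2 ratios of 0.66 and 1.29. The lowest, median and highest wells had 0, 59.2 and 26157 CPM (CD45+) and 0, 29.1 and 17245 CPM (CD45-) in batch 1, and 0, 4.35 and 2833 CPM and 0, 1.48 and 3730 CPM in batch 2. Rich wells numbered 12 of 92 (CD45+) and 9 of 93 (CD45-) in batch 1, and 6 of 90 and 6 of 93 in batch 2, and held 95.6 to 97.0% of the reads of their plates. Without CD45+ replicate 83 of batch 1 the ratio was -0.04 at 673 CPM, and without CD45- replicate 46 of batch 1 it was 2.27, with 225 CPM in CD45-. When each well was given equal weight, the batch 2 ratio was -0.07.

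Some S100g-rich wells of both gates carried tubule transcripts at high levels, and others did not. CD45+ replicate 83 of batch 1, with 26157 CPM, held 22254 CPM of Klk1, a kallikrein of the distal nephron, and 20831 CPM of Fxyd2, a subunit of the sodium pump. CD45- replicate 46 of batch 1, with 17245 CPM, held 6313 CPM of Klk1, 5451 CPM of Aqp2, the water channel of the collecting duct, 380 CPM of Calb1 and 695 CPM of Trpv6, an apical calcium channel. CD45+ replicate 29 of batch 1, with 11983 CPM, held 778 CPM of Fxyd4 and 194 CPM of Aqp2, and CD45- replicate 19 of batch 2, with 3730 CPM, held 1440 CPM of the calcium channel gene Trpv5. In contrast, CD45+ replicate 40 of batch 1 had 15231 CPM of S100g with 0 reads of Klk1 and Aqp2, and 3745 CPM of Fxyd2. Of the rich wells, at least 100 reads of Klk1 were in 4 of 12 (CD45+) and 1 of 9 (CD45-) in batch 1, and in 1 of 6 and 2 of 6 in batch 2. Over all kept wells Klk1 reached 100 reads in 6 of 92 (CD45+) and 4 of 93 (CD45-) in batch 1, and in 6 of 90 and 3 of 93 in batch 2. Fxyd2 reached 100 reads in 3 of 12 (CD45+) and 3 of 9 (CD45-) rich wells of batch 1, against 25 of 92 and 17 of 93 of all wells, and in 3 of 6 and 3 of 6 of batch 2, against 17 of 90 and 15 of 93. Slc12a3, the sodium chloride cotransporter of the distal convoluted tubule, reached 100 reads in no S100g-rich well. All 12 rich CD45+ wells of batch 1 and 5 of 6 of batch 2 had at least 100 reads of Tyrobp, against 0 of 9 and 0 of 6 rich CD45- wells. Over all kept wells this held for 74 of 92 and 75 of 90 (CD45+) and for 2 of 93 and 2 of 93 (CD45-). Emcn reached 100 reads in 6 of the 9 rich CD45- wells of batch 1, against 26 of 93 of all. In batch 2 it did so in 1 of 6 rich CD45- wells, against 26 of 93 of all. These tubule genes were chosen for mention after their values were seen.

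S100g also had a low number of reads in most wells outside its rich wells, with higher medians in batch 1. Its median in wells that were not rich was 7.5 to 9 reads in all depth ranges of CD45+ batch 1, while in CD45- batch 1 it was 1, 4, 7, 6 and 9 reads from the shallowest to the deepest range. In batch 2 it was 0.5 to 1 read in the CD45+ ranges and 0 to 1 in the CD45- ranges. Unlike those of S100a8, these reads were on both plates of batch 1. After thinning to 50000 reads, 84.2% (CD45+, 74.04 to 91.6%) and 67.1% (CD45-, 55.6 to 77.3%) of wells had an S100g read in batch 1, and 33.3% (23.1 to 44.9%) and 18.3% (10.6 to 28.4%) in batch 2. S100a6 and S100a11 had low medians outside their rich wells too, of 10 to 17 and 3.5 to 15 reads over the depth ranges of CD45+ batch 1. For S100a4 the median outside its rich wells was at most 0.5 reads in every depth range of the 4 plates.

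None of the tested genes among the other S100 genes and the partners of the family passed the rule. Of 9 other S100 genes, S100a3, S100a7a and S100z had no read in a kept well, 5 were tested, and none passed in either direction, with median log2 ratios of 0 and -0.61. S100a1, best known from muscle, stood at 1164 CPM (CD45+) and 1005 CPM (CD45-) in batch 1, and at 635 and 970 CPM in batch 2. S100a13 had log2 ratios of -0.96 and 0.32 and S100a16 of -2.01 and -0.87. S100b, best known from glia, was at 0 CPM on both plates of batch 1, and stood at 0.0703 CPM (CD45+) and 30.6 CPM (CD45-) in batch 2, where CD45- replicate 31 held 76.1% of its reads.

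Of 11 binding partners and receptors, 9 were tested and 0 passed, with median log2 ratios of -0.92 and -1.26. Anxa2, annexin A2, stood at 228 CPM (CD45+) and 1546 CPM (CD45-) in batch 1, and at 443 and 1504 CPM in batch 2 (log2 ratios -2.75 and -1.76), past 4-fold in batch 1 only. Anxa5 had ratios of -1.33 and -1.26, Ahnak, a large scaffold that binds the S100a10 and annexin A2 complex, -0.92 and -1.15, and Myh9, the non-muscle myosin chain that S100a4 binds, -0.10 and -0.49. Tlr4, the receptor of calprotectin, had 598 reads in CD45+ batch 1, of which 99.2% lay in replicate 95, and ratios of 4.56 and -3.36. Ager, another receptor of S100 proteins, was below 1 CPM on average and was not tested; both receptors were chosen for mention after their values were seen. Of 6 calcium transport partners of S100g, 4 were tested and none passed: Atp2b1, a calcium pump, had ratios of 0.91 and -0.48, Calb1, the larger calbindin, -2.10 and 0.98, Trpv6 1.02 and -0.53, and Trpv5 -0.05 and -2.93. Single wells weigh on the last 3 genes. CD45- replicate 46 of batch 1 held 305 Calb1 and 558 Trpv6 reads, and CD45- replicate 19 of batch 2 held 203 Trpv5 reads. Each was the only well of its plate with at least 100 reads of that gene.

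Marker lists show what the gates held around these genes. Of 8 markers each, all leukocyte and all macrophage markers were higher in CD45+, with summed levels of leukocyte markers of 28608 and 24831 CPM in CD45+, against 155 and 449 CPM in CD45-. Of 13 neutrophil markers, 10 were tested and 5 were higher in CD45+, with summed levels of 600 and 191 CPM in CD45+ against 119 and 87.98 CPM in CD45-. Of 8 monocyte markers, 7 were tested and 5 were higher in CD45+; of 8 lymphocyte markers 3 of 7, and of 8 dendritic cell markers 2 of 6, with 1 dendritic cell marker higher in CD45-. Of the stromal lists, 7 of 8 fibroblast, 5 of 8 pericyte and smooth muscle and 1 of 8 endothelial markers were higher in CD45-. Of 8 distal tubule and collecting duct markers, 7 were tested, 1 was higher in each gate and 5 passed in neither direction, and none of 6 proximal tubule markers passed. All 4 tested red blood cell markers were higher in CD45-, with summed levels of 23.1 and 20.9 CPM in CD45+ against 13893 and 2918 CPM in CD45-.

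Across wells of at least 50000 reads, S100a8 and S100a9 were the most alike pair of members on all 4 plates. In CD45+ their Pearson r of log2(CPM + 1) was 0.73 over 76 wells of batch 1 and 0.58 over 78 wells of batch 2, and in CD45- it was 0.42 over 79 wells and 0.71 over 82 wells, of which few held a read of either gene. The genes whose pattern was nearest to S100a8 in the CD45+ plates, among 2762 genes with a read in at least 20% of these wells, were S100a9 (mean r 0.66), Slfn1 (0.53), Tnfaip2 (0.49), Slpi, a secreted protease inhibitor (0.45), and Cmip (0.40). For S100a4 the nearest genes in CD45+ were Srrm1, Tspan13, Napsa, Sla and Ift22, at mean r of 0.30 to 0.34, and in CD45- Ptprr, Ceacam1, Tspan8, Efhd1 and Jam2, at 0.38 to 0.42. No gene of either S100a4 set was in the other, and values this low in sparse counts are not a finding. S100a6 and S100a11 had r of 0.50 and 0.33 in the CD45+ plates, against 0.22 and 0.18 in the CD45- plates. These coefficients describe wells of 1 plate each, which share a library pool and differ in depth.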

How the data were processed

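The authors deposited 1 table of whole-number counts per batch, with genes in rows and wells in columns. Cells were sorted into lysis buffer and amplified with Clontech SMARTer chemistry, per the labels' protocols. The submitters' processing notes name STAR (with version 3.0.4), featureCounts 1.4.5 and Subread, without the step each did; the genome build was not given in the sources used here, nor was strand use in counting. Repeated lines of a gene (598 in batch 1, 595 in batch 2, 2.39% and 2.42% of reads) were dropped. Wells under 10000 reads or 500 genes (16) were left out. The highest r between wells was 0.63 within a plate and 0.54 across plates, so none was taken as deposited more than once. CPM, log2 ratios (1 CPM added), Poisson and Clopper-Pearson 95% intervals and thinning to 50000 reads used Python 3.11.15, numpy 2.4.6, pandas 2.3.3 and scipy 1.17.1; TMM factors came from edgeR 4.0.16 and size factors from DESeq2 1.42.0 (R 4.3.3). No doublet caller was run. With 1 plate per gate and batch no test was made and no p-value is given. All intervals cover counting error in the wells measured, not differences between animals or batches. The ratio and the 4-fold rule were tested on simulated data. Named genes were all members, the most abundant genes of the partner lists, the 5 nearest patterns, and list genes picked after their values were seen. Members and lists were chosen with earlier results of these data known. Promoter sequences came from RefSeq, and protein sequences were not used here.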

Additional observations from a re-analysis of the deposited data

Results flagged for a closer look

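S100a9 was found outside the kept wells of the CD45- gate. The 3 wells left out of the CD45- batch 2 plate as near empty held S100a9 at 6593 CPM (95% interval 5564 to 7758), against 0.724 CPM in the kept wells of that plate, which is a signal in data the comparisons do not use. All 145 of these reads lay in 1 well, replicate 62, which had 5648 reads and 1712 genes in total and 25673 CPM of S100a9. The same well held 0 S100a8 reads and 0 reads of the 13 neutrophil markers. It held 8 reads of Tyrobp, 24 of Cd74, 16 of Col1a1 and 22 of Dcn. Of the 18 other wells in its plate row or column, 1 had an S100a9 read, and that well had 1. With the left-out wells counted, the S100a9 log2 ratio of batch 2 was 3.98, against 5.85 without them, and S100a9 still passed the 4-fold rule. Where the reads came from was not tested.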

How the results depend on the processing

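S100a8 and S100a9 stayed at least 4-fold higher in CD45+ in both batches under all alternatives run, so the count was 2 throughout, also without the leading well of each plate (2 to 2). The count higher in CD45- was 0 except with a 2-fold rule, where it was 1, S100a6; without single wells it was 0 to 0. The S100a8 count of CD45+ wells at or above 100 CPM was 29 in batch 1, but 15 among wells of at least 50000 reads and 13 by 100 reads, a limit chosen after seeing the data. In batch 2 it was 11, but 19 at 50 CPM and 4 at 500 CPM, in wells of at least 50000 reads, and by 100 reads. For S100a4 the CD45+ batch 1 count was 7, and 4 at 500 CPM or by 100 reads; at 50 CPM the CD45- counts were 11 in batch 1 and 5 in batch 2, against 7 and 3. The median log2 ratio of all genes, -0.39 and -0.56 in batches 1 and 2, was -0.09 and -0.08 with TMM factors and -0.08 and -0.06 with DESeq2 size factors, and of the 14 member ratios S100a10 in batch 2 changed sign with both. With all wells weighted equally, S100g in batch 2 was at -0.07. With the left-out wells, S100a9 in batch 2 was at 3.98. With 10 CPM added, the genes called fell to 250 higher in CD45+ and 364 higher in CD45-; with a 2-fold rule they were 954 and 2841. Of 140 recomputed member ratios, 64 moved by less than their counting interval and 76 moved by more. No paired analysis was possible because well numbers were given in accession order and pair nothing. Depth limits the shares of wells with a read, and reads without molecular identifiers leave amplification error unknown.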
